A study of Mus musculus with 8 samples.

Results

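The regions described here are stretches of the mouse genome that gave rise to unspliced transcripts for which the assembler of the RNA-seq reads found no annotated gene. In each of 8 libraries, single-exon transcripts with a TPM (a relative abundance that corrects for length and library size) of 1 or more were taken if no transcript of the same assembled gene carried a reference gene. Overlapping spans were merged across libraries, on either strand, and spans found in 2 or more libraries were kept. This gave 75060 regions of 380593 merged spans (19.7%), covering 87.7 megabases. They were thus chosen by the TPM values of these same 8 libraries, and their presence is a description and not a finding. The lowest TPM that let a region in, read in the library with its second highest value, was 1.10 (chr6:83359320-83360250 and chr3:96390329-96390698). On the other side of the rule lay 305533 spans found in a single library, with a median TPM of 2.22, led by a span of chromosome 10 at a TPM of 3161 in KO zygotene 1.

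The libraries came from spermatocytes sorted by FACS from testes of 2-month-old C57BL/6 mice, either Bend2 WT or Bend2 KO. Each genotype was sorted at leptotene and at zygotene, the first stages of meiotic prophase, with 2 libraries per group that are named below by their replicate number. Leptotene chromosomes condense along axes and are cut by programmed breaks, and at zygotene homologues begin to pair along their length. The labels describe neither the Bend2 allele nor how many animals gave each library, so the p-values here rest on the spread between libraries alone, which may be technical. No transcript carried the name Bend2. The X-linked gene model Gm15262 read, in scaled TPM, 49.5 and 0 for WT against 27.4 and 38.4 for KO at leptotene, and 30.6 and 17.8 for WT against 31.1 and 39.5 for KO at zygotene (limma log2 difference KO against WT 1.40, SE 1.13, adjusted p = 0.568). It was thus not lower in KO; whether it is the targeted gene, and which part was deleted, is not given in the sources used here, so it does not settle the labels.

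Transcripts of this kind can have several origins. Introns of long genes are copied before they are spliced out, transcription runs on past the 3′ ends of genes or starts backwards from their promoters, and replication-dependent histone genes and retrocopies of spliced genes have a single exon by nature. Male germ cells are known for transcribing much of the genome between protein-coding genes, including long noncoding RNAs and the single-stranded precursors of piRNAs, small RNAs that guard germ cells against transposons.

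The promoters of 4 genes whose regions appear in the comparison of genotypes are shown first, to show where RefSeq has a gene start in or near a region. The windows of 1700041B01Rik and H2bc23 overlap their regions, that of Morf4l1b ends 6 bases before its region, and that of 4930525D18Rik lies 15453 bases from the nearer of its called regions. They were chosen after values were seen. Sequences are from RefSeq (GRCm38.p6), on the strand of the gene, 5′ to 3′, from 250 bases before to 50 bases after the annotated start. Capitals mark matches to one of 4 motifs, each searched on both strands, and no match overlapped another. The letters AACNGNC stand for a MYB-like motif. The letters TATAAA stand for the TATA box. The CCAAT box is spelled by its name. The cyclic AMP response element was searched as TGACGTCA. Of 32817 RefSeq promoter windows 32.8% held the MYB-like motif, 13.6% TATAAA, 37.4% CCAAT and 1.79% TGACGTCA, so the first and the CCAAT box are common by their letters alone.
Morf4l1b (chromosome 19, 41525002 to 41525301, plus strand): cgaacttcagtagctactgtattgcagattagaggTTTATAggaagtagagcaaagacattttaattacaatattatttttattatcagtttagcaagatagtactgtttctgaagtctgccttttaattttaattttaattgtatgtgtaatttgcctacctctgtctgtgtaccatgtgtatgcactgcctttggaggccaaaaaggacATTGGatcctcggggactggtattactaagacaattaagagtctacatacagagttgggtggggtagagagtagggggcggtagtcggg
4930525D18Rik (chromosome 9, 114364578 to 114364877, minus strand): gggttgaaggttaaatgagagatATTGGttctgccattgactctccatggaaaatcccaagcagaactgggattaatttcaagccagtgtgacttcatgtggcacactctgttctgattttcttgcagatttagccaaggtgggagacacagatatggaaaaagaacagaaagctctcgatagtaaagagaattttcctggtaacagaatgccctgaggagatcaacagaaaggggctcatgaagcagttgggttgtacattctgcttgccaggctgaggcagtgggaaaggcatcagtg
1700041B01Rik (chromosome 15, 78670388 to 78670687, plus strand): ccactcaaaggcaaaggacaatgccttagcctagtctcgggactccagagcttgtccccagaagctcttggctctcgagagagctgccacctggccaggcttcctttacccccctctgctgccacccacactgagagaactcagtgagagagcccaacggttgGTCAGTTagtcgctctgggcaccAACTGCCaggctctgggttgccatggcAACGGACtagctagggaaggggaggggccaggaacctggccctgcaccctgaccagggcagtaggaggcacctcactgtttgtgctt
H2bc23 (chromosome 13, 21810150 to 21810449, minus strand): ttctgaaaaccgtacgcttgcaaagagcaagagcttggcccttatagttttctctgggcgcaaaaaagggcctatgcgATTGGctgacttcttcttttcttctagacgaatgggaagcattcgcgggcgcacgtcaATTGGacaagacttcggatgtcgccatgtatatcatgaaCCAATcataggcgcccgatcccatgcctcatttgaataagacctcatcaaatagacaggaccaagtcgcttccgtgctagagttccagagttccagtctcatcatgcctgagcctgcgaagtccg
The Morf4l1b window held 1 TATA box and 1 CCAAT box match, that of 4930525D18Rik 1 CCAAT match, the 1700041B01Rik window shown 3 MYB-like matches, and that of the histone gene H2bc23, called Hist1h2bq in GENCODE, 3 CCAAT matches. A second RefSeq start of 1700041B01Rik in the same region (window 78671021 to 78671320) held 0 matches.

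The number of unannotated single-exon transcripts varied more within groups than their means did between genotypes or stages. WT leptotene 1 held 51519 of them and WT leptotene 2 held 86620. KO leptotene 1 held 80114 and KO leptotene 2 held 49842. At zygotene the WT libraries held 35576 and 93555, and the KO libraries 98366 and 45630. Each group thus had 1 library with 80114 or more and 1 with 51519 or fewer. The higher library was replicate 2 in both WT groups and replicate 1 in both KO groups.

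Their share of the TPM of a library split the same way. At leptotene WT libraries gave 12.5% and 23.7%, and KO libraries 22.3% and 14.4%. At zygotene the values were 9.87% and 23.7% for WT, then 24.0% and 11.8% for KO. The share in KO libraries was 0.67 percentage points higher than in WT (18.1% ± 5.92, SD, n = 4, against 17.4% ± 7.32; exact two-sided permutation test, p = 0.771, Benjamini-Hochberg adjusted over 4 tests 0.943). Between zygotene and leptotene it differed by -0.90 points (exact permutation p = 0.714, adjusted 0.943). The numbers of transcripts gave exact permutation p-values of 0.914 for genotype and 0.943 for stage, both adjusted to 0.943. With 70 arrangements of 8 libraries the smallest p possible was 0.0286, and the sign of each of the 4 differences changed when single libraries were left out.

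The 4 libraries with more of these transcripts were not those with more sequence. As the files imply, they held 6.82, 7.01, 8.14 and 9.45 aligned gigabases, and the other 4 held between 7.16 and 7.82. The lowest mean coverage of a listed single-exon transcript was 4.75 reads per base in every library, which put the TPM of the faintest one between 1.10 and 1.94, so the minimum of 1 removed none. Median transcript length was between 286 and 305 bases in the 4 libraries and between 319 and 330 in the others. Counted as covered bases in place of TPM, which gives weight to length, the share was between 4.09% and 7.58% of a library. Unannotated transcripts with 2 or more exons took 3.72% to 5.30% of TPM. In each group their share was also higher in the library with more single-exon transcripts, by a smaller step: 5.30% against 5.19% in WT leptotene, 4.77% against 4.57% in KO leptotene, 4.87% against 4.67% in WT zygotene and 4.45% against 3.72% in KO zygotene.

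Erythroid and Leydig cell markers moved with the same split. The summed scaled TPM of 5 red blood cell genes, 4 hemoglobin genes and the heme synthesis gene Alas2, was 2687, 1062, 2884 and 2182 in the 4 libraries with more of these transcripts, and 120, 3.61, 247 and 3.10 in the others. Alas2 alone overlapped, at 2.91 in KO leptotene 1 and 3.59 in WT leptotene 1. None of these 5 genes held a region. The Leydig genes summed to 158, 150, 176 and 206 in the 4 libraries with more of these transcripts. In the others they summed to 37.3, 79.4, 84.1 and 77.8. One of them, Hsd3b1, had no value. The part of either cell type in the number of regions was not tested.

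**Figure D1:**
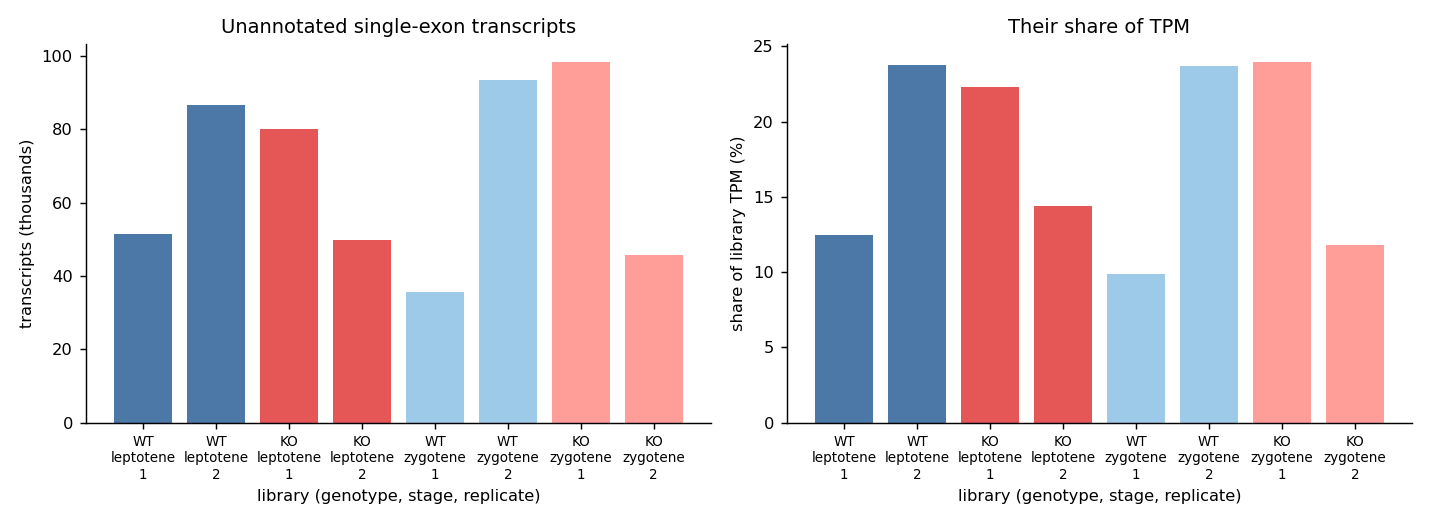
Left, unannotated single-exon transcripts per library; right, their share of the library's TPM in percent. Each bar is 1 library and colours mark the 4 groups. In every group 1 bar stands at 80114 transcripts or more and the other at 51519 or fewer.

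Most regions were short, faint and found in few libraries. Region length ranged from 204 to 91699 bases with a median of 659 and quartiles of 448 and 1162. The value of a region is its TPM per base: the TPM of its transcripts weighted by their length, divided by the length of the region and scaled between libraries. The mean of this value over the 8 libraries had a median of 0.473, and 3693 regions reached 1, 106 reached 5 and 13 reached 50. The 10 most abundant regions held 4.20% of the summed values. Of all regions 47532 (63.3%) were found in exactly 2 libraries and 538 in all 8.

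Regions found in more libraries were longer and more often touched exons. Median length was 519 bases at 2 libraries, 1342 at 4 and 6472.5 at 8. Part of this follows from the merging, since each further library can only extend a span. The share overlapping an annotated exon was 10.4% at 2 libraries and 34.0% at 8, while the share lying wholly in introns was 56.7% and 25.7%. Transcripts on both strands were merged in 13.2% of regions found in 2 libraries and in 40.9% of those found in all 8.

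**Figure D2:**
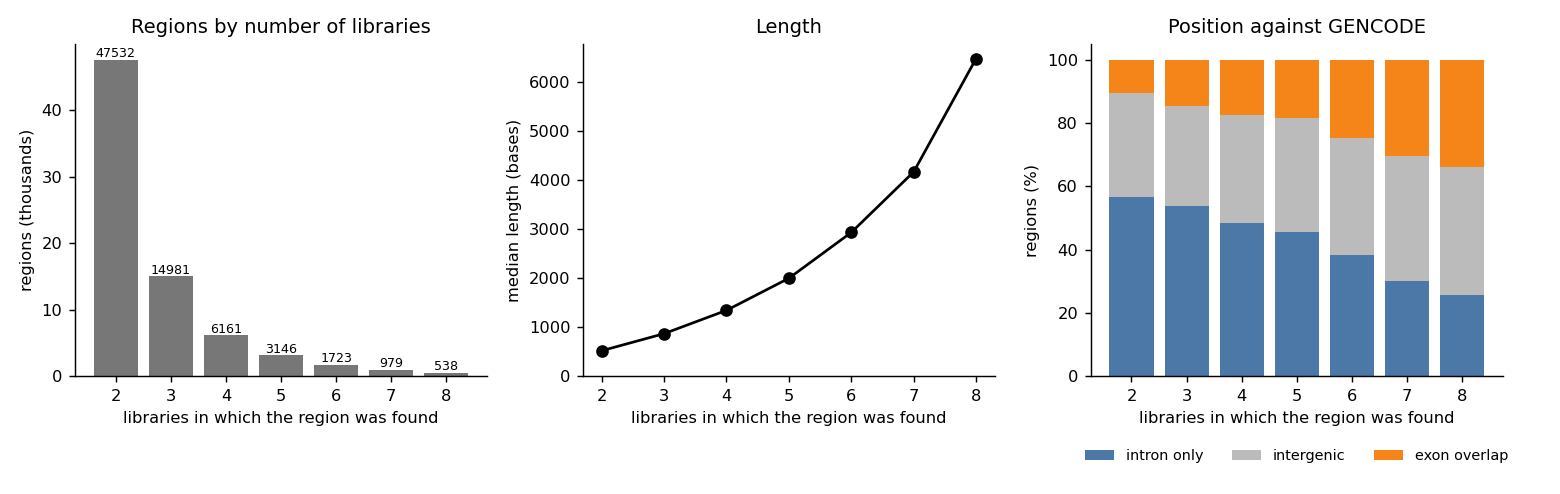
Left, number of regions by the number of libraries in which they were found; middle, their median length in bases; right, the percentage lying only in introns, between genes or over exons of GENCODE M21. Counts fall from 47532 at 2 libraries to 538 at 8, while the median length rises from 519 to 6472.5 bases.

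Among the 6161 regions found in exactly 4 libraries, the most common of the 70 possible sets was the 4 libraries with more of these transcripts, with 391 regions (6.35%). The set of all 4 KO libraries ranked 3 with 221 (3.59%) and that of all 4 WT libraries held 146 (2.37%). All 4 leptotene libraries alone shared 61 and all 4 zygotene libraries 57. Of regions found in just 2 libraries, the largest number, 3863, was shared by WT zygotene 2 and KO zygotene 1, which differ in genotype. The libraries of a group shared between 1260 and 1991 such regions. In all, 14695 regions were found only in KO libraries and 11038 only in WT libraries. Such regions passed the rule through 1 genotype alone, so these counts support no difference between genotypes.

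A region that was not found was rarely hidden under another label. In 398604 of 600480 combinations of region and library no such transcript was listed, and in 29008 of those (7.28%) a transcript of another class covered part of the region. Those combinations touched 13414 regions. Any overlap on either strand was counted, however small. A value of 0 in them can thus mark a change of label, or a region that other transcripts barely touched.

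Introns held the largest part of the regions. Of the 75060 regions 40524 (54.0%) lay only in introns of GENCODE M21 genes, 24874 (33.1%) between genes and 9662 (12.9%) over an exon. By bases, 63.8% of the regions was intron, against 40.2% of the annotated chromosomes, 29.6% was intergenic against 55.1%, and 6.60% was exon against 4.71%. Of 35831 intronic regions with transcripts on 1 strand only, 33489 (93.5%) were on the strand of the gene. Between 4 and 21 of these transcripts per library carried no strand. Within each library 84.3% to 90.9% of intronic transcripts were on the gene's strand, and 49.9% to 58.6% of all the transcripts lay in introns. The intronic share of transcripts was 57.2% to 58.6% in the 4 KO libraries and 49.9% to 52.9% in the 4 WT libraries, and the intergenic share 32.4% to 33.6% and 39.6% to 43.2%. The genotypes did not overlap in either share, which was noticed in the data and was not tested.

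Intergenic regions gathered near genes, most often past a 3′ end on the strand of the gene. Of 19617 on 1 strand, 10563 lay within 5 kb of a gene and 1125 more than 50 kb away, with a median distance of 4283 bases. Among those within 5 kb, 4739 (44.9%) lay past the 3′ end of the nearest gene on its strand. A further 3094 (29.3%) lay before its 5′ end on the opposite strand. The 2 other arrangements held 1464 and 1266. A RefSeq gene covered 5376 (21.6%) of the intergenic regions, so part of the set is unannotated in one catalogue only. RefSeq promoter windows were touched by 2365 regions (3.15%).

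Regions over exons were mostly on the strand of the gene (5145 of 7307 on 1 strand, 70.4%). The gene was never named in any of the 8 files for 1767 of these 5145 (34.3%). Hist1h2bq, Hist1h2br and Rpl29, described below, are of this kind, and the label "unannotated" is then a property of the assembly. Protein-coding exons were met by 6950 of the 9662 exonic regions, long intergenic noncoding RNAs by 1007 and processed pseudogenes by 442.

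The regions fell in 11297 genes, of which 4936 held a single one and 91 held 50 or more. Large numbers were in long genes. Gm20388, a gene model spanning 4435 kb, held 184. Rora, which encodes a nuclear receptor, held 179 in 734 kb, and Wwox, an oxidoreductase gene, held 166 in 913 kb. Lrmda held 144. The number of Rora regions found was 48 and 95 in WT leptotene against 25 and 26 in KO leptotene. At zygotene it was 63 and 121 in WT against 111 and 33 in KO. Rora itself was listed at 0 in 4 of the 8 libraries and at no more than 3.85 in the others.

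Chromosome 2 held the most regions (5919). The X chromosome held 2737, or 16.0 per megabase, below each of the 19 autosomes (22.5 to 37.2). Set against genes with a TPM of 1 or more in 2 libraries, X held 3.87 regions per gene, within the autosomal range of 3.26 to 6.28. The Y chromosome held 124, mitochondrial DNA 1 and unplaced scaffolds 70. The X share of single-exon transcripts in a library was between 3.44% and 4.24%.

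**Figure D3:**
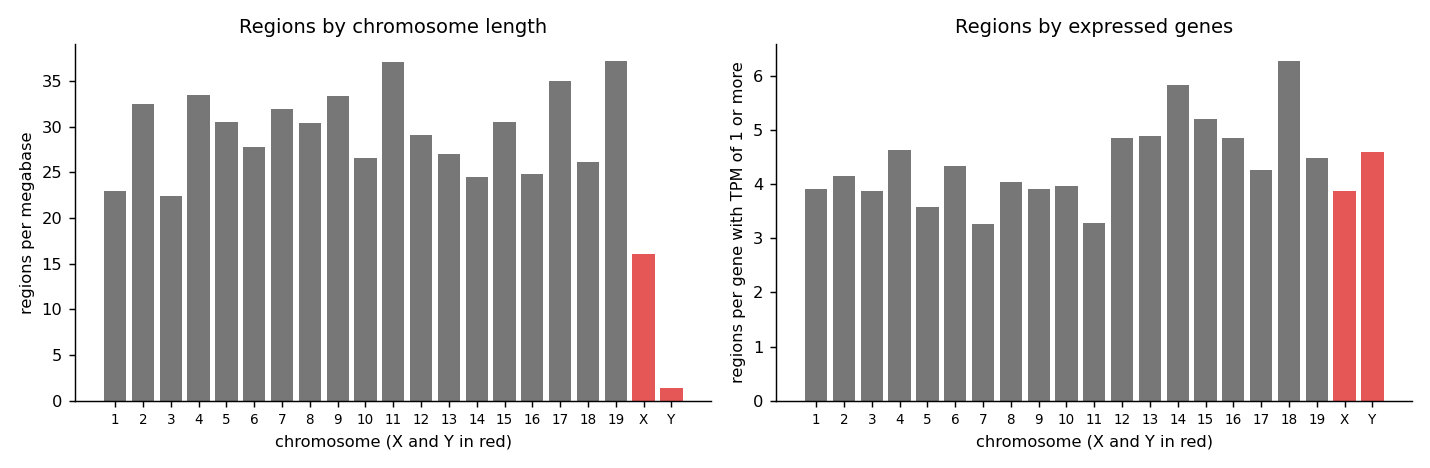
Left, regions per megabase up to the last annotated gene of each chromosome; right, regions per gene with a TPM of 1 or more in 2 libraries. The X bar is the lowest after Y on the left, at 16.0, and lies among the autosomes on the right, at 3.87.

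Hairpins of miRNAs lay in 34 regions, which can be read as parts of primary miRNA transcripts. A stretch of 78.9 kb of the X chromosome (66771822 to 66850745) carried 10 regions, all on the minus strand, 4 of which covered the hairpins of Mir743, Mir742, Mir878 with Mir880, and Mir465. These belong to an X-linked miRNA cluster known for its expression in testis. Their 3p mature sequences are shown because they name the RNAs that a transcript from this stretch could yield; capitals mark the seed, bases 2 to 8, and the 10 mature miRNAs of the 5 hairpins had 10 different seeds (RefSeq, GRCm38.p6).
mmu-miR-743a-3p: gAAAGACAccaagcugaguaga
mmu-miR-742-3p: gAAAGCCAccaugcuggguaaa
mmu-miR-880-3p: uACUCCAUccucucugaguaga
mmu-miR-878-3p: gCAUGACAccacacuggguaga
mmu-miR-465a-3p: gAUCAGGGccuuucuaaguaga
Per base of the 10 regions together, the leptotene values were 0.123 and 0.654 for WT and 1.48 and 0.613 for KO. The zygotene values were 0.170 and 2.44 for WT and 1.97 and 1.98 for KO. The groups overlapped, and WT zygotene 2 was the highest of all by these transcripts alone. The region over Mir465 was found in 5 libraries, at 4.73 in KO zygotene 2 and 0.214 in WT leptotene 2 at the extremes. Transcripts under other labels also covered these regions. With every transcript counted, WT leptotene 1 was the highest library over Mir465 (6.18) and over Mir742 (14.5), so low values there partly reflect labels.

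The most abundant region found in all 8 libraries was chr12:3109869-3110121, 253 bases with transcripts on both strands and 22828 bases from the nearest gene, Gm9075. Its values were 165 and 899 for WT and 264 and 234 for KO at leptotene, and 641 and 181 for WT at zygotene, where neither KO library passed 84.2. The libraries of a WT group differed several-fold, and the 2 KO zygotene libraries were the lowest. Next came chr3:5860339-5860824, at 285 and 680, 197 and 105, 123 and 150, and 25.2 and 33.9 in the same order.

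Several short regions shared the order of chr3:5860339-5860824, highest in WT leptotene 2 and lowest in KO zygotene. The region chr14:104715772-104715990, opposite to the strand of the noncoding gene D130009I18Rik, read 127 and 385, 66.2 and 43.1, 48.1 and 49.0, and 10.5 and 5.47. The region chr8:15519775-15520124 read 141 and 323, 87.2 and 36.8, 57.4 and 51.3, and 10.2 and 3.98. In Gm26561, chr17:70963658-70963890 read 99.2 and 237, 70.3 and 38.9, 38.9 and 65.8, and 13.7 and 0. None was called in any of the 5 comparisons given below. A single region of mitochondrial DNA, MT:15356-16299, covered the proline tRNA gene mt-Tp on both strands and stayed between 80.1 and 195 in all libraries.

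Abundance did not secure detection. Region chrX:140485261-140485594, 334 bases long and 9121 bases past the 3′ end of Prps1, a nucleotide synthesis gene, read 558, 650, 664, 674, 529, 510 and 711 in 7 libraries and was listed at 0 in WT leptotene 1. The histone gene region chr13:21833622-21834186 (Hist1h2br) read 202 and 0 in WT leptotene against 383 and 319 in KO leptotene, and 83.7 and 67.9 in WT zygotene against 0 and 223 in KO zygotene. With every transcript counted the X region read 248 in WT leptotene 1, while the values of 0 in Hist1h2br stayed at 0. An exact 0 between such values is a listing and need not be absence of RNA. Genes that these cells use were listed the same way: Smc1b, a meiotic cohesin subunit, was at 0 in 3 of the 8 libraries. On the Y chromosome the highest region, chrY:10705072-10709596, read 7.20 and 0, 1.72 and 3.86, 6.39 and 0.330, and 1.38 and 3.73.

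**Figure D4:**
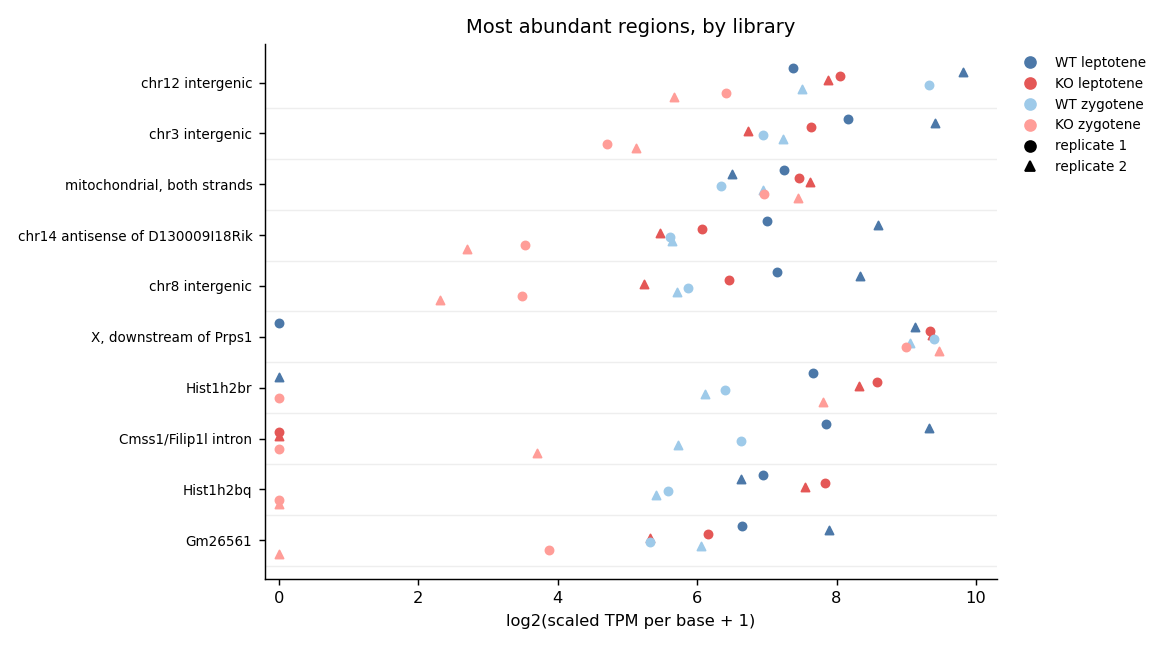
Values of the 5 most abundant regions found in all 8 libraries and the 5 most abundant found in 2 to 7, as log2 of the scaled TPM per base plus 1. Each point is 1 library, colours mark groups and shapes replicates. KO zygotene points are lowest for the regions of chromosomes 12, 3, 14 and 8, and several regions have single points at 0.

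The longest regions lay in introns and exons of long genes. In Smyd3, which encodes a methyltransferase, chr1:179205871-179297569 ran over 91699 bases with values of 2.15 and 1.59 in WT leptotene and 0 in WT zygotene 2. A span of 71912 bases in Frmd5 (chr2:121730851-121802762) had values from 0.230 to 2.63. The third longest, 66143 bases of Rad51b, a homologous recombination gene (chr12:79414071-79480213), had values from 0.0322 to 4.30. Values did not order the groups in any of the 3.

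KO was compared with WT by limma on log2(value + 1), in a fit of 106324 features that held the regions, 18097 annotated genes and 13167 unannotated spliced loci, with p-values adjusted over all of them. Averaged over the stages, 27 of the 75060 regions (0.036%) passed an adjusted p of 0.05, where 0.636% of all features passed. Of these, 21 were lower in KO (all features 0.5%) and 6 higher (all features 0.135%). At leptotene 2 regions passed (all features 0.0931%), 1 lower (0.0762%) and 1 higher (0.0169%). At zygotene 3 passed (all features 0.0386%), 2 lower (0.031%) and 1 higher (0.00752%). Zygotene against leptotene gave 1 region (all features 0.00376%), and so did the interaction of genotype and stage (all features 0.00188%). The sample number limits these counts. In simulated data for the averaged comparison 10% of regions changed 4-fold and 80% of those changed 16-fold were recovered. Only regions with a mean log2(value + 1) above 1 were changed there, while the median region had a mean value of 0.473. Recovery in fainter regions was not simulated. The 4 KO libraries lay above all 4 WT libraries in 518 regions (0.69%, against 2.18% of all features) and below in 385 (0.513%, against 3.17%). Regions found in only 2 libraries (47532) or 3 (14981) cannot separate in this way. The lower shares are thus in part fixed by how regions were chosen, and nothing is concluded from them. The median log2 difference was 0.03 over the regions and 0.01 over all features. Fewer cells of a type and less RNA per cell cannot be told apart in these bulk libraries.

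Marker genes of some other testis cells moved with genotype. The summed scaled TPM of 10 round spermatid genes, such as the protamine gene Prm1, was between 4553 and 9490 in WT libraries and between 611 and 1497 in KO libraries. One of them, Odf1, had no value. For 10 genes of pachytene and later spermatocytes the sums were 737 to 1056 in WT and 152 to 333 in KO, while 10 spermatogonial genes summed to 178 to 222 in WT and 425 to 647 in KO. The 6 macrophage genes summed to 103 to 436 in WT and 11.6 to 27.4 in KO. The 20 genes of leptotene and zygotene summed to 900 to 2018 in WT and 1065 to 1436 in KO. Genotypes also overlapped in the Sertoli genes (108 to 270 in WT, 118 to 176 in KO) and the Leydig genes (37.3 to 176, 77.8 to 206). The same held for peritubular and stromal genes (240 to 739 in WT, 33.0 to 475 in KO). The part of these cell types in the regions that follow was not tested.

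Of the 27 regions, 11 were found in WT libraries only and 4 in KO libraries only. These entered the set through the genotype in which they are high and had to differ, so they are described below by their values, without p-values.

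The region chr19:41525307-41527222 was found in WT alone, 1916 bases on the plus strand inside an intron of Lcor, a gene for a nuclear receptor corepressor. RefSeq places Morf4l1b, named for its likeness to a chromatin protein gene, at this spot, and the region begins 55 bases after the Morf4l1b start shown above. It read 22.1 and 29.6 in WT leptotene and 23.5 and 33.1 in WT zygotene, and was listed at 0 in all 4 KO libraries. No other transcript covered it there. Lcor itself read 22.4 to 34.7 in WT and 42.0 to 48.8 in KO, with a limma adjusted p of 0.245 and a higher mean in KO.

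In an intron of Adam18, which encodes a sperm surface protein, chr8:24660312-24663963 read 30.0 and 10.6 in WT leptotene and 56.3 and 24.1 in WT zygotene. The KO libraries gave 0.181 and 3 values of 0 (limma difference -4.68 on the log2(value + 1) scale). This region, too, met the rule through WT libraries alone, so no p-value is given. Adam18 was itself listed at 0 in WT leptotene 1 and in all 4 KO libraries. In Catsperb, a subunit gene of the sperm calcium channel, chr12:101467438-101468717 read 8.30 and 4.29, then 10.8 and 3.92 in WT, and 0 in KO. That region was 1 of 16 in Catsperb, 12 of which had a higher mean in WT. All 16 are pieces of the same gene and not independent, so this count supports no difference between genotypes.

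Several called regions lay close together in 3 stretches. The gene model Gm18795 on chromosome 12 held 18 regions, 16 with a higher mean in WT, and 3 of them, between 101252982 and 101258920, were called. The most abundant, chr12:101255001-101256207, read 12.9 and 7.02, then 22.1 and 16.7 in WT, and was at 0 in KO. On chromosome 4 between 91966692 and 92010726, 44.0 kb with no GENCODE or RefSeq gene, 5 regions on the plus strand were all at 0 in KO, and 3 were called. Per base of the 5 together, WT read 8.60 and 3.16 at leptotene and 12.8 and 6.03 at zygotene. On chromosome 9, RefSeq places the noncoding gene 4930525D18Rik over 8 regions of which 2 were called. Per base of the 8 together the values were 4.68 and 2.69, then 7.61 and 3.42 in WT, and 0.278, 0, 0.0622 and 0.141 in KO. In each of these stretches replicate 1 of a WT group read higher than replicate 2, and all WT libraries lay above all KO libraries. The regions of a stretch are not independent, and those at 0 in every KO library entered the set through WT. The counts and the order given here thus support no difference between genotypes.

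Long regions kept some signal in KO. The region chr15:78651854-78674721, 22868 bases with transcripts on both strands, spans the start of 1700041B01Rik shown above and exons of Elfn2. It was found in all 8 libraries, with 8.37, 8.24, 8.82 and 10.2 for WT, then 1.58, 0.864, 2.16 and 0.967 for KO (limma difference -2.08, SE 0.30, adjusted p = 0.0486). With the summed TPM of its transcripts, which ignores their length, the difference turned to 0.91 (adjusted p = 0.179). Also found in all 8 was chr9:67730489-67733938, 912 bases before the miRNA gene Mir7242, where RefSeq has the gene C2cd4b. It read 6.58, 7.01, 14.3 and 7.61 in WT and 0.722 to 1.77 in KO. The intergenic chr7:62720293-62732951, 12659 bases, read 2.74 to 7.84 in WT and at most 0.0843 in KO. An intronic span of Stox1, a transcription factor gene, at chr10:62670793-62676774 read 6.75 to 14.5 in WT and 0 to 0.812 in KO.

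The remaining lower regions were varied. Inside Cmss1 and Filip1l, chr16:57391112-57391676 read 230 and 641 in WT leptotene, 97.6 and 51.8 in WT zygotene, and was at 0 in 3 KO libraries and far below all WT libraries in KO zygotene 2. It lost its call with every assembled transcript counted. At the start of Samd4b, chr7:28436187-28437126 read 4.82 or more in WT and 0 to 2.19 in KO, and lost its call when every transcript was counted (adjusted p = 0.20). In Wdr89, chr12:75630688-75633510 read 3.04 to 4.92 in WT and 0 in KO. Other transcripts covered it in KO at 1.88 to 6.91, so that the difference turned to 0.15. An intergenic region of chromosome 12, chr12:18473559-18473814, read 3.12 to 10.4 in WT and 0 in KO. The last lay on chromosome 18, nearest to Mir6356 in GENCODE and where RefSeq has Gm30821. It read 56.5, 128, 19.8 and 27.7 in WT and 27.2, 15.7, 0 and 0 in KO, so that the genotypes overlapped.

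Of the 5 comparisons, those of stage and of the interaction called the same single region. Hist1h2bq encodes a replication-dependent histone H2B, and its promoter is shown above. Its region chr13:21809756-21810320 read 122 and 97.5 in WT leptotene against 228 and 187 in KO leptotene, and 46.7 and 41.6 in WT zygotene against 0 and 0 in KO zygotene. KO was higher at leptotene and listed at 0 at zygotene. The limma interaction was -6.41 (SE 0.35, adjusted p = 0.036), zygotene against leptotene -4.49 (SE 0.18, adjusted p = 0.00791), and KO against WT at zygotene -5.50 (SE 0.25, adjusted p = 0.0205). The interaction lost its call with 5 added before the logarithm (adjusted p = 0.134), with a covariate for the libraries with more of these transcripts (0.095), without the intensity trend (0.151) and with the replicate block (0.157). It also lost it without any 1 of 6 libraries (adjusted p from 0.0518 to 0.218), and kept it without KO leptotene 2 or KO zygotene 2. The difference lay between -9.71 and -4.19 under the alternatives tried. Hist1h2br, described above, is another 565 bases on the same chromosome, and in the 5 libraries with both its value was 1.63 to 1.79 times that of Hist1h2bq. Near-identical histone genes can share reads, so the division between them is uncertain.

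Labels carried part of the higher calls in KO, of which 3 of 6 were kept with every transcript counted. The region of Hist1h2bc, chr13:23684166-23684647, read 326 and 232 in KO leptotene and was listed at 0 in the other 6 libraries (this region, too, entered the set through 1 group alone). In those 6, transcripts assigned to the annotated gene covered it, and with them the values were 88.3 and 41.2 in WT leptotene against 326 and 232 in KO leptotene, and 26.9 and 17.3 in WT zygotene against 109 and 92.4 in KO zygotene. The difference was then 2.17 at leptotene, where the call was lost, and 2.17 averaged over stages. No p-values are given, as the region was chosen through KO leptotene. Near Gm6223, where RefSeq has Tmem41b-ps, chr9:90119845-90120588 read 3.31 to 7.05 in KO and 0 in WT. In WT it read 4.88 to 5.52 once every transcript was counted. Intronic Dleu2, the host gene of Mir15a and Mir16-1, changed in the same way, from 0 to between 0.445 and 3.48 in WT (chr14:61670215-61674648).

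Over the ribosomal protein gene Rpl29, chr9:106431029-106431665 read 41.8 to 86.6 in 6 libraries and 0 in both WT zygotene libraries, 1 of which held 23.4 under another label. The 2 calls higher in KO that kept their values with every transcript counted were intergenic. One, where RefSeq has the tRNA gene n-TAtgc7, was chrX:136396901-136397152, at 3.03 to 4.27 in KO and at 0 in every WT library. The other was chr19:36802952-36803332, at 9.67, 5.50, 8.77 and 9.54 in KO and 1.35 in a single WT library.

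Of the 27 regions 23 did not overlap between genotypes, 19 of them lower and 4 higher in KO. They were called for that difference, and many were found in 1 genotype only. These counts are thus a description and support no difference between genotypes. Among the 21 lower, 11 were listed at 0 in all 4 KO libraries and 10 were at 0 there with every transcript counted. With every transcript counted 18 of the 21 kept their call and 3 of the 6. The count depended on single libraries: it was 0 without WT leptotene 1, without WT leptotene 2 or without WT zygotene 2, and 3 without KO zygotene 1. Leaving out one of the other 4 raised it to between 1190 and 2063, nearly all regions found in the lone remaining library of a group and nowhere else. All 27 differences kept their sign in each of these fits.

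**Figure D5:**
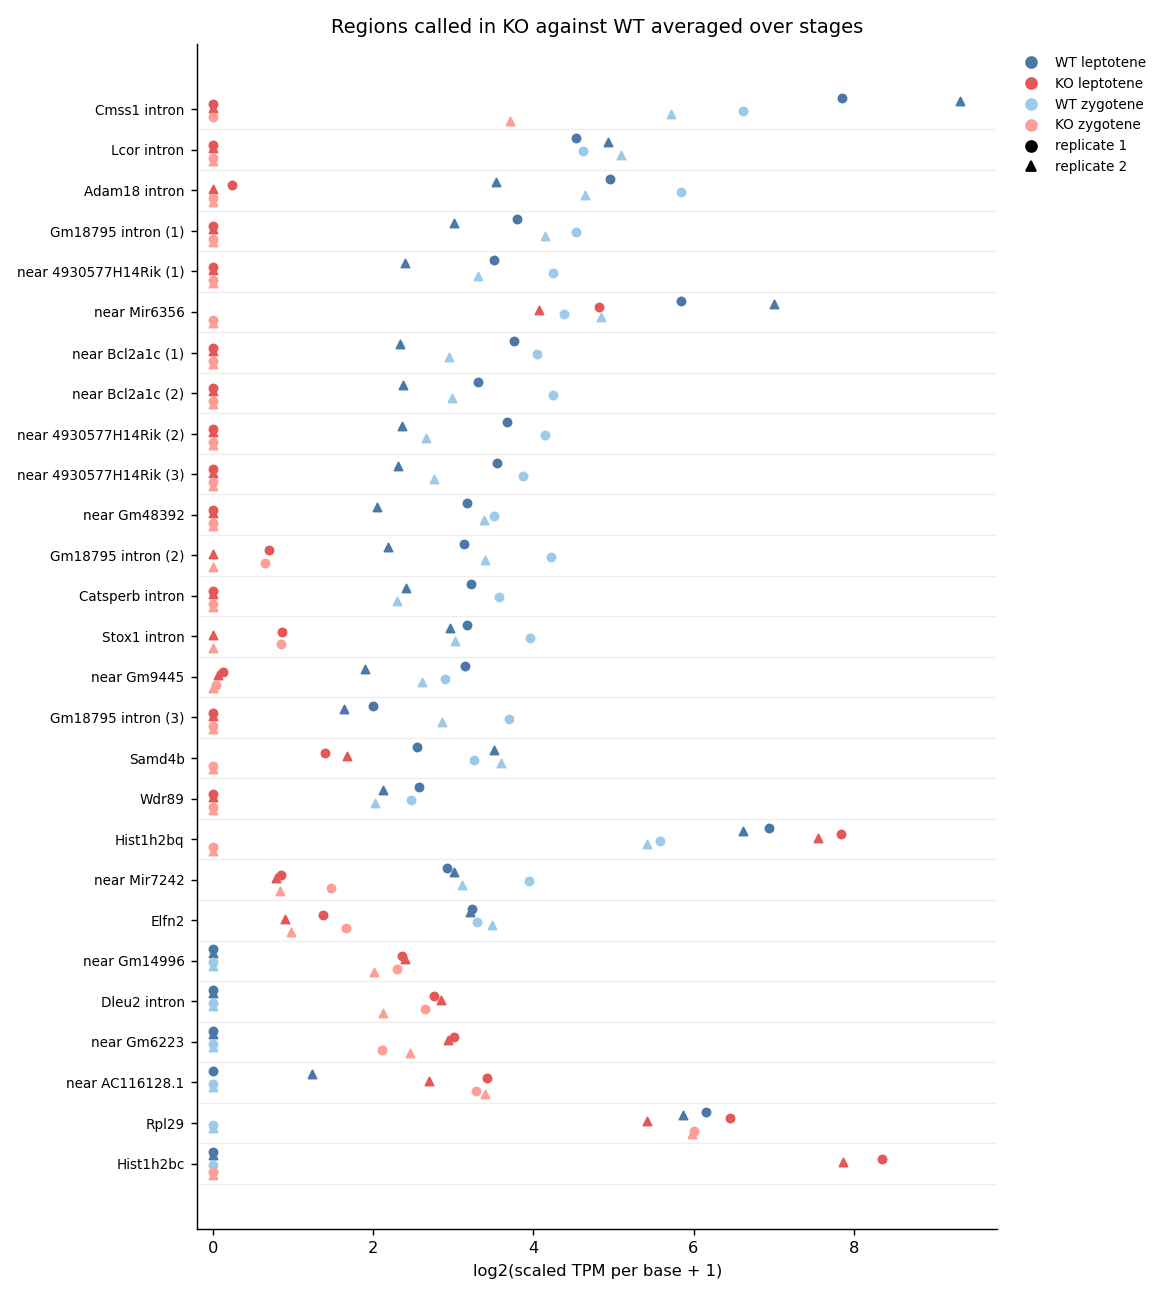
Values of the 27 regions called in KO against WT averaged over stages, named by the gene they lie in or the nearest gene, as log2 of the scaled TPM per base plus 1. Points are libraries, colours groups and shapes replicates. The upper 21 are lower in KO, with 11 at 0 in all KO libraries, and the lower 6 are higher, led by Hist1h2bc with points above 0 in KO leptotene only.

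Genes that mark the cell types of the testis also held regions, and none of those was called. The list of leptotene and zygotene genes held 40 in 7 of its 20 genes, among them 13 in Hormad2, which marks unsynapsed axes, 13 in Mei4, needed for meiotic DNA breaks, and 10 in Msh4, a crossover gene. The other 4, Spo11, Meiob, Tex101 and Rad21l, held 1 each. Of the 40, 20 had a negative difference between KO and WT, with a median of 0.01 log2 beside 0.01 over all features. Spermatogonial genes held 48, of which 46 lay in Gfra1, the receptor gene of spermatogonial stem cells, and 2 in Nanos3.

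The number of Gfra1 regions found was 12 and 5 in WT leptotene against 33 and 33 in KO leptotene, and 4 and 22 in WT zygotene against 28 and 1 in KO zygotene. The KO leptotene libraries lay above both WT leptotene libraries, while the KO zygotene libraries bracketed the WT ones. The difference was positive for 44 of the 46, with a median of 0.61 log2, and none passed the limma test. Several of them, such as chr19:58349025-58349675, were found in KO libraries alone and entered the set through that genotype. All 46 are pieces of the same gene and not independent, so this count of signs supports no difference between genotypes. Gfra1 itself read 1.21 and 5.13, 7.73 and 10.5, 0.635 and 7.24, and 4.14 and 8.17 in the same order (limma adjusted p = 0.451). Piwil1, a piRNA pathway gene, held 7 regions and Spag6 2. Of these 9, the regions in genes of pachytene and later spermatocytes, 1 had a negative difference, the median was 0.26 log2 and 0 were called. Prm2, Sox9, Cyp11a1, Star and Csf1r held 1 each, Dhh and Cd68 2 each, Gata4 3 and Wt1 4.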

How the data were processed

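Total RNA was sequenced from 8 libraries in 4 groups, prepared with a directional kit per the labels' protocols. The submitters' processing notes name HISAT2, DESeq2 and mm10 without settings. Per the file headers, the authors assembled each library with StringTie 2.1.2, guided by Ensembl 89 and with no strand option. For each transcript the deposited files give coverage, FPKM and TPM; read numbers are unknown, and no counting interval is given. Regions were placed against GENCODE M21 and RefSeq (GRCm38). A transcript's gene counted as annotated if any of its transcripts named a reference gene. Libraries were put on one scale with median-of-ratios factors taken from annotated genes. Genes and spliced loci entered the fit with a TPM of 1 or more in 2 or more libraries. The fit (limma 3.58.1, R 4.3.3) held the 4 group means, eBayes and an intensity trend, with 4 residual degrees of freedom. Python 3.11.15, pandas 2.3.3, numpy 2.4.6 and pyranges 0.1.4 were used for tables, and plots drawn with matplotlib 3.10.9. Fits were checked on simulated data with independent noise.

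Named are the most abundant, the longest and the highest sex-linked regions, called regions, the genes holding most regions and marker genes holding any. The result for 1 gene is not reported here. The members, marker lists, rule and tests were chosen with earlier results of these data known. Replicate numbers were not taken as pairs. The design text speaks of more replications than the 2 libraries per group used here. Sequences of the regions themselves are not printed, as no genome was used.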

Additional observations from a re-analysis of the deposited data

Results flagged for a closer look

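The Hist1h2bq region chr13:21809756-21810320 stood out because the difference between KO and WT itself differed between the stages, by -6.41 on the log2(value + 1) scale in limma's interaction test (SE 0.35, adjusted p = 0.036). The call was lost with 5 added before the logarithm (adjusted p = 0.134), with a covariate for the libraries with more of these transcripts (0.095), without the intensity trend (0.151) and with the replicate block (0.157). KO read 228 and 187 against 122 and 97.5 in WT at leptotene, and 0 and 0 against 46.7 and 41.6 at zygotene. The Hist1h2br region, which may share reads with it, read 0 and 223 in KO zygotene. A listed 0 for Hist1h2bq thus need not be absence of the histone RNA. No group has enough libraries for a test of single outlying values.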

How the results depend on the processing

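With so few arrangements of the libraries the exact tests could hardly pass, so their calls say nothing of stability. Leaving out single libraries moved the number between -8743.33 and 10583 for genotype and between -8770.08 and 12159.9 for stage, and the share between -1.85 and 2.77 points and between -3.11 and 1.59 points. The stage difference in number turned to -204.75 at a TPM of 5 or more, and the genotype difference in share to -0.0276 points by covered bases. The rule kept 1086 regions at a TPM of 5 or more, 12547 when 4 libraries were required, and 56930 to 69561 without single libraries.

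Counts of called regions depended on the processing, and the cause was not tested except where stated. The share of all features called under each setting is not set beside them. The counts thus describe the settings and give no result about the regions. At leptotene (2 called) there were 2431 with 0.1 added before the logarithm, 5 with 5 added, 45 with no filter, 5 with values of 5 or more required, 1 with summed TPM, 1 with all exons, 7 without the trend and 0 with only the libraries compared. At zygotene (3 called) there were 62 with no filter, 7 with values of 5 or more, 5 with deposited TPM, 1 with summed TPM, 0 with a covariate for the libraries with more of these transcripts, 6 without the trend and 0 with only the libraries compared. Averaged over stages (27 called) there were 61 with 0.1 added, 131 with no filter, 54 with values of 5 or more, 50 with all exons and 48 without the trend. Summed TPM gave 21, of which 11 were higher and 10 lower in KO. For stage (1 called) there were 2 with 5 added, 25 with no filter, 3 with values of 5 or more, 2 with quantile normalization and 2 without the trend. For the interaction (1 called) there were 14 with no filter, 3 with values of 5 or more, 0 with the covariate and 0 without the trend. Without single libraries the counts ran from 0 to 1938 at leptotene, 0 to 2029 at zygotene, 0 to 2063 averaged, 0 to 1929 for stage and 0 to 1924 for the interaction; the high ones are nearly all regions found in the lone library of a group and nowhere else. In such fits the lone library is assumed to vary like the other groups.

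The replicate block gave 0 calls at leptotene, 0 at zygotene, 9 averaged, and 0 for the interaction, and the deviations of libraries with the same number correlated between -0.0154 and 0.0447 over regions and between -0.131 and 0.205 over genes. The highest values were within a genotype across stages (0.205 for WT and 0.0881 for KO over genes), and the numbers were not taken as pairs. Single differences reversed in the Wdr89 region with all exons (0.15) and in the Elfn2 region with summed TPM (0.91). Among alternatives for single called regions 382 kept the call, 265 lost it and 2 reversed.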
